A study of Homo sapiens with 10 samples.

Results

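The 42 genes described here act at the passage from G1 into S phase and in the copying of DNA. They were chosen by gene symbol, with earlier results of these data known, as 42 of the 19775 genes that the array annotation names. Each was read by its brightest probe set over all arrays. By role they were grouped into 12 helicase genes, 14 polymerase and replication fork genes, 4 genes of nucleotide supply, 4 licensing genes, 3 genes of cyclin E and E2F1, and 5 chromatin and checkpoint genes. The study measured RNA of 2 established human lines of non-small cell lung carcinoma, A549 and the EGFR-mutant H1650, on 10 Affymetrix U133 Plus 2.0 arrays, 5 per line. In each line 1 array held cells with ID1 siRNA and nicotine, 1 ID1 siRNA and EGF, 1 control siRNA and nicotine, 1 control siRNA and EGF, and 1 control siRNA with no stimulus. All cells had first been starved of serum for 48 h, and the stimulated ones then received 1 µM nicotine or 100 ng/ml EGF for 18 h. No array held ID1 siRNA without a stimulus, so every siRNA comparison is one between stimulated cells. Nothing in the labels says that the arrays came from separate cultures, and with n = 1 array per line and condition the p-values measure only the spread between these arrays.

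Before S phase the origin recognition complex, CDC6 and CDT1 load the MCM ring onto origins, and CDC45 with the GINS complex later turns that ring into a moving helicase. Polymerases alpha, delta and epsilon then copy the strands, with delta and epsilon held by the PCNA clamp that the RFC complex loads. FEN1 and LIG1 mature the lagging strand, and ribonucleotide reductase, TYMS and TK1 supply deoxynucleotides. Many of these genes are transcribed by E2F factors once cyclin-dependent kinases have inactivated RB, and their RNA is low in resting cells and high in cells entering S phase. ID1, the gene silenced in this study, is a helix-loop-helix protein without a DNA-binding part that holds basic helix-loop-helix factors off DNA.

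Values were MAS5 signals on a linear scale, scaled per array to a 2% trimmed mean of 500, with array medians of 61.2 to 79.6. All 42 members lay above the signal filter of 66.7 (a mean log2 of 6.06), as did 12514 genes in all, which were tested together with limma. A call is an adjusted p under 0.05. Changes are log2 fold changes with the limma standard error, and within a line each rests on 2 matched pairs of arrays, 1 per stimulus. The silenced gene was lower on every array labelled ID1 siRNA than on its matched control. In A549 the ID1 signal was 1343 and 1343 with ID1 siRNA under nicotine and EGF, against 3719.8 and 3049 with control siRNA and 1645 in the unstimulated control, and in H1650 it was 881 and 1031 with ID1 siRNA under nicotine and EGF, against 4964 and 5121 with control siRNA and 5029.9 in the unstimulated control. Against its matched control ID1 was 63.9% and 56.0% lower in A549 cells and 82.3% and 79.9% lower in H1650 cells, and the unstimulated A549 control stood nearer to the ID1 siRNA arrays than to the stimulated controls. All 6 epithelial markers were above the filter in both lines, with summed signals of 73348 to 118217 in A549 and 103032 to 117533 in H1650, while markers of fibroblasts, endothelium and blood cells summed to at most 1214 on any array. By their mean in A549, 2 of 5 fibroblast, 1 of 4 endothelial and 1 of 4 blood cell markers were also above the filter, and in H1650 3, 2 and 2 were. COL1A1, a fibroblast marker, reached 853 in A549 and 998 in H1650.

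Promoters from RefSeq (GRCh38.p14) are shown for 1 member of each role with a called difference of the siRNA effect between the lines, to let the words in front of their start be read beside the values below. Each runs from 250 bases before to 50 bases after the transcription start, 5′ to 3′ along the gene. Capitals mark E2F-like words (TTTNGCGC or TTTNCCGC, on either strand) and CCAAT boxes (CCAAT, or ATTGG on the other strand). Matches of different words may share bases, and a promoter was counted once per motif.
GINS2: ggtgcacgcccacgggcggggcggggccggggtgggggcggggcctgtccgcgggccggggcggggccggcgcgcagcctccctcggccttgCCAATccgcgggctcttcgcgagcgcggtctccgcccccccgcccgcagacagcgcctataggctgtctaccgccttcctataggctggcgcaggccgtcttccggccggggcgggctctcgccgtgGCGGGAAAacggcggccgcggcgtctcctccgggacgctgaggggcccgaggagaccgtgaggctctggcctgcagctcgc
LIG1: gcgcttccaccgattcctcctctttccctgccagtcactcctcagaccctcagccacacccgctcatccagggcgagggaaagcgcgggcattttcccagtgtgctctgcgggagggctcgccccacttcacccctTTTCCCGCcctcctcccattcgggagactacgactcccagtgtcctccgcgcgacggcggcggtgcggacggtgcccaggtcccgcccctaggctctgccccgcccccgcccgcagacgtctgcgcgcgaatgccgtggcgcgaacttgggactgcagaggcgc
RRM1: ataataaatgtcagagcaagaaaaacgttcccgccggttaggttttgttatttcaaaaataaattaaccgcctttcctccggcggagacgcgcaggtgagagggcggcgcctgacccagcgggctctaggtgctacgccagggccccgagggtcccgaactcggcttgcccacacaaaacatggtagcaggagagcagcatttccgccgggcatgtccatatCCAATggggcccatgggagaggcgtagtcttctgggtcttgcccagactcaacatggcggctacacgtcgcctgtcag
CDC6: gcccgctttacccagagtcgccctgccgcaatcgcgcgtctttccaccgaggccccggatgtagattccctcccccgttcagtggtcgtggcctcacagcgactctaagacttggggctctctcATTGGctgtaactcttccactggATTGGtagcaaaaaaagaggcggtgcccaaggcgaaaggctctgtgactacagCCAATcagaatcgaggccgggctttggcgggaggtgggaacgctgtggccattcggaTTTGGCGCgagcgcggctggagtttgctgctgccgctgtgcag
E2F1: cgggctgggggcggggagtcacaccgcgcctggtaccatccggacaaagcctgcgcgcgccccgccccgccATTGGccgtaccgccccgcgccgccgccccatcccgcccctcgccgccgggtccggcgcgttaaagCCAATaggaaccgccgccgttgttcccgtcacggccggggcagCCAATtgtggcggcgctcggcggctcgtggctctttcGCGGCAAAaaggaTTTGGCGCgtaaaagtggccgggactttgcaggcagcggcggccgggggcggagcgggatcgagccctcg
UHRF1: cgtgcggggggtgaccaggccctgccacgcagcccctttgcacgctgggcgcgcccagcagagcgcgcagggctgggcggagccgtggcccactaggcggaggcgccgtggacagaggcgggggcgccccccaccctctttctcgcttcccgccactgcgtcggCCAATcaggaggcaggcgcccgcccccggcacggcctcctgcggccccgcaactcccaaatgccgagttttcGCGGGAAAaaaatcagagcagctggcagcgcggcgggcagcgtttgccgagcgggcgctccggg

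The GINS2 promoter lies at chr16:85688905-85689204 (minus strand), that of LIG1 at chr19:48170295-48170594 (minus strand), that of RRM1 at chr11:4094435-4094734 (plus strand), that of CDC6 at chr17:40287629-40287928 (plus strand), that of E2F1 at chr20:33686336-33686635 (minus strand) and that of UHRF1 at chr19:4909251-4909550 (plus strand). GINS2 and UHRF1 each hold 1 E2F-like word and 1 CCAAT box, LIG1 holds 1 E2F-like word alone, RRM1 holds 1 CCAAT box alone, CDC6 holds 1 E2F-like word and 3 CCAAT boxes, and E2F1 holds 2 and 3. Promoter sequences matched 37 of the 42 members by symbol, all but MCM4, MCM5, GINS4, RPA2 and CCNE2. Of these 37, 22 (59.5%) held an E2F-like word, against 4.99% of 27305 promoters in the table and 7.89% of the 10188 promoters of tested genes. A CCAAT box was present in 21 of 37 (56.8%), against 35.7% of all promoters and 36.5% of those of tested genes. The ID1 siRNA effect described next had a median log2 of -0.32 in A549 and 0.45 in H1650 over the 22 members with an E2F-like word, and of -0.47 and 0.30 over the 15 without one. Of the 22, 8 fell in A549, 10 rose in H1650 and 16 were called for the difference between the lines, and of the 15 the counts were 8, 4 and 9. Of all tested genes 11.4% fell in A549, 5.64% rose in H1650 and 4.92% were lower for the difference. A match is a description of these windows, and binding was not measured.

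With ID1 siRNA many of the replication genes fell in A549 and many rose in H1650. In A549 19 of the 42 members fell and 0 rose, where 11.4% of all tested genes fell and 13.8% rose, and the median over the members was -0.38 against 0.05 over all tested genes. In H1650 16 members rose and 0 fell, where 5.64% of all tested genes rose and 6.66% fell, and the median was 0.35 against -0.01. The test of the difference itself, the effect in A549 minus that in H1650, called 28 members lower and 0 higher, against 4.92% lower and 6.98% higher among all tested genes, with a median of -0.70 against 0.07. At an unadjusted p under 0.05 in the same limma fits, 25 members were lower and 0 higher in A549, 25 higher and 0 lower in H1650, and 31 lower and 0 higher for the difference. Of the 12514 tested genes 4833, 3404 and 3527 had such a p in these fits, counted in either direction. These are measurements of bulk RNA, in which a smaller share of cells in S phase and less RNA of these genes per cell cannot be told apart.

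The direction held in single pairs of arrays. With ID1 siRNA 41 of 42 members were lower in the A549 nicotine pair (median -0.38) and 33 in the A549 EGF pair (median -0.40), and all tested genes had medians of 0.01 and 0.08 there. In H1650 38 members were higher in the nicotine pair (median 0.30) and 39 in the EGF pair (median 0.34), beside -0.03 and 0.01 over all tested genes. Both A549 pairs were lower for 32 members, where 33.7% of all tested genes met that rule, and both H1650 pairs were higher for 37, where 33.2% did. Both rules together were met by 29 of 42 members, against 9.3% of all tested genes.

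**Figure D1:**
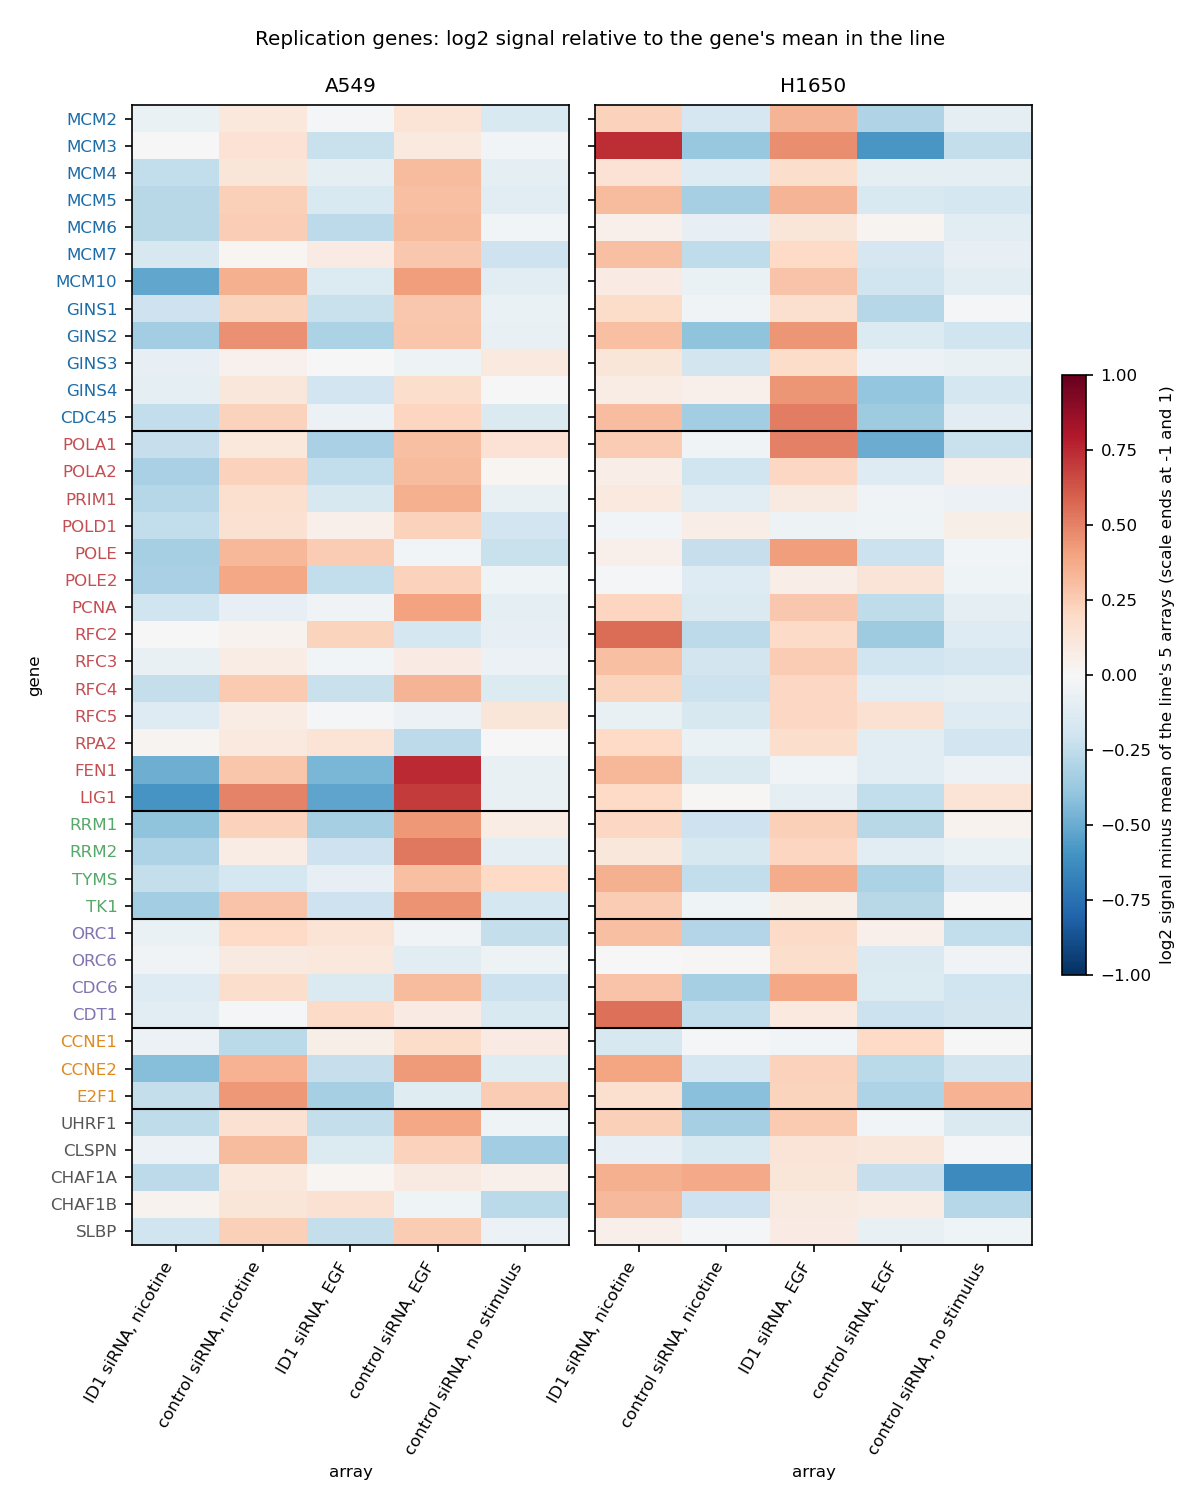
Log2 signal of the 42 members on each array (columns, 5 per line) minus the gene's mean over the line's 5 arrays, in colour from blue (lower) to red (higher); rows are grouped by role, with gene names coloured by group. With ID1 siRNA 41 members were lower than the matched control in the A549 nicotine pair and 33 in the EGF pair, and 38 and 39 were higher in the H1650 pairs.

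By the calls on their brightest probe sets the members fall into 4 classes. Lower in A549 and higher in H1650, each by its own test, were 7 members: MCM5, GINS2, RFC4, RRM1, CDC6, CCNE2 and UHRF1. In A549 alone 12 members were called, namely MCM4, MCM6, MCM10, GINS1, POLA2, PRIM1, POLE2, FEN1, LIG1, RRM2, TK1 and SLBP. In H1650 alone 9 were called, namely MCM2, MCM3, MCM7, CDC45, RFC2, RFC3, TYMS, CDT1 and E2F1. The remaining 14 were called in neither line, although POLA1 and PCNA among them were called for the difference between the lines. A call in 1 line alone does not show that the effects differ, and of the 21 such members all but RFC2 and CDT1 were also called for the difference.

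These counts depend on the error model and on the scaling. Without limma's intensity trend, which lets bright genes have a smaller prior variance than dim ones, 8 members fell in A549, 0 rose in H1650 (21 at an unadjusted p under 0.05, lowest adjusted p 0.0731) and 1 was called for the difference, and of all tested genes only 1 was called in H1650. At an unadjusted p under 0.05 that H1650 fit held 2948 of the 12514 tested genes, counted in either direction. Without the trend 440 of all tested genes fell in A549 and 20 were lower for the difference. Centring each array on its median gave 33 members lower in A549, where 3966 of the 12514 tested genes were lower. It also shifted all tested genes there to a median of -0.23, and the members' median was -0.67. Quantile normalization gave 22 members lower in A549 with a median of -0.35, where 1474 of the 12514 tested genes were lower. Under that centring and under quantile normalization alike, 0 members rose in A549 and 0 fell in H1650. The ID1 siRNA arrays of A549 had median signals of 78.5 and 75.9, against 65.2 and 61.2 on their controls. Without the H1650 nicotine pair 8 members rose in H1650 and without the H1650 EGF pair 11 did, against 16 with both, and with the mean of all probe sets of a gene 18 were called for the difference.

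Some calls were lost when 1 pair, and with it 2 of the 8 arrays, was left out. Without the A549 EGF pair CDC6, GINS1, MCM4, POLA2, PRIM1, RRM2, SLBP and UHRF1 were no longer called in A549 (adjusted p from 0.0577 to 0.21), and without the A549 nicotine pair POLE2 was not (adjusted p = 0.0812). Without the H1650 nicotine pair CCNE2, CDT1, E2F1, MCM5, MCM7, RFC3, RFC4, RRM1, TYMS and UHRF1 were no longer called in H1650 (adjusted p from 0.0505 to 0.394). Without the H1650 EGF pair E2F1, MCM2, RFC4, RRM1 and TYMS were not (adjusted p from 0.094 to 0.266). All of these kept their sign, and the folds did not all shrink. Without the H1650 nicotine pair TYMS had 0.69 and RRM1 0.52 in H1650, against 0.65 and 0.47 with both pairs, while CDT1 had 0.31 against 0.56.

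**Figure D2:**
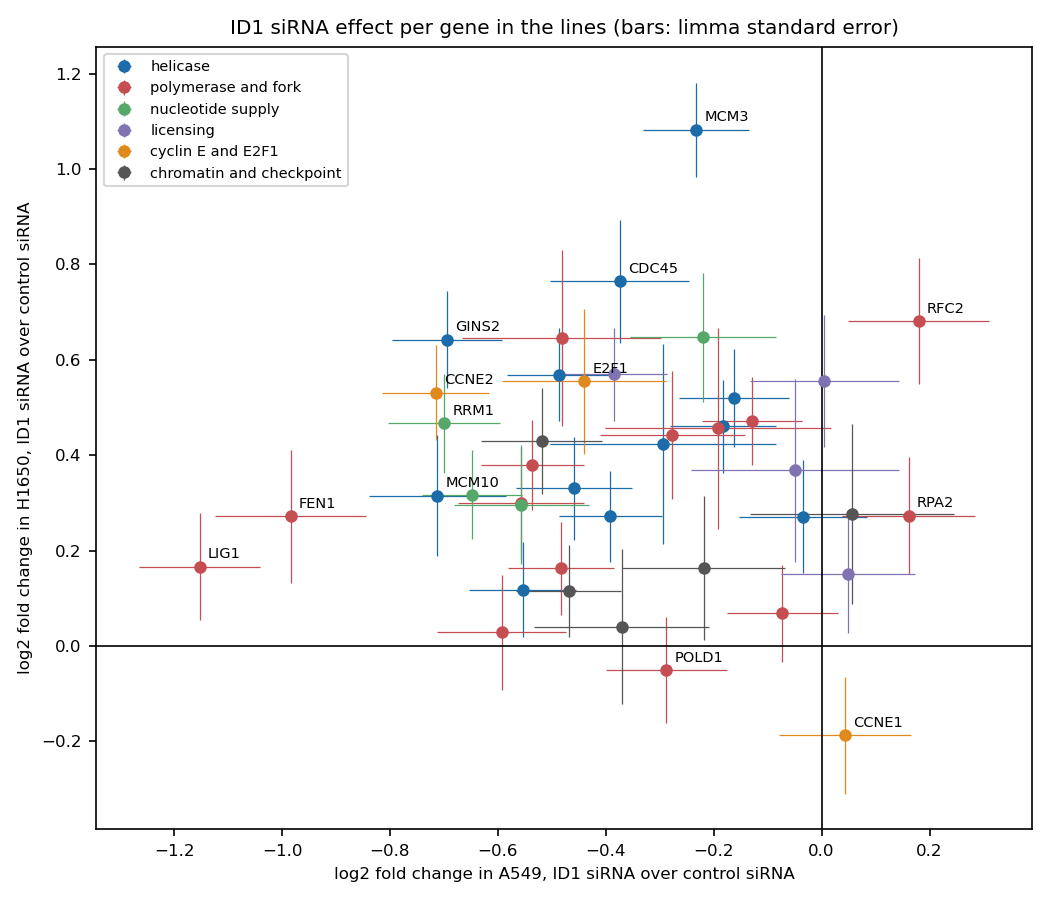
ID1 siRNA effect per member as log2 fold change over control siRNA in A549 (x axis) and in H1650 (y axis); bars are limma standard errors, each from a fit to 4 matched pairs, and colours give the role. Most members lie left of and above the zero lines, with LIG1 and FEN1 farthest to the left, MCM3 at the top, and CCNE1 below zero in H1650 with a value of -0.19.

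Of the 12 helicase genes 6 fell in A549 and 6 rose in H1650, and 10 were called for the difference between the lines, with a median difference of -0.75. Beside the counts of this and the other roles, 11.4% of all tested genes fell in A549. In H1650 5.64% rose, and 4.92% were lower for the difference. GINS2, a subunit of the GINS complex of the helicase, had the largest difference of all members. In A549 its signal was 1463 under nicotine and 1495 under EGF with ID1 siRNA, 2544 and 2251 under the same stimuli with control siRNA, and 1767 in the control without a stimulus. In H1650 it was 2598 under nicotine and 2864 under EGF with ID1 siRNA, 1595 and 1915 under the same stimuli with control siRNA, and 1831 in the control without a stimulus. The 2 ID1 siRNA arrays were the lowest of the 5 in A549 and the highest of the 5 in H1650, with no overlap with the controls. The effect was -0.69 ± 0.10 in A549 and 0.64 ± 0.10 in H1650, and the difference was -1.34 ± 0.14 (adjusted p = 0.000943). With the mean of its 3 probe sets the effect in A549 was -0.06 and the difference -0.60 (adjusted p = 0.246).

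MCM3, a subunit of the MCM ring, had A549 signals of 2754 and 2357 on the ID1 siRNA arrays with nicotine and EGF and 3038 and 2949.6 on their matched controls, beside 2702 on the unstimulated control. The H1650 signals were 2637 and 2174 on the ID1 siRNA arrays with nicotine and EGF and 1215 and 1053 on their matched controls, beside 1337 on the unstimulated control. The H1650 ID1 siRNA arrays came near the level of the A549 arrays, and all 3 H1650 controls lay below every other array. The value in A549 was -0.23 ± 0.10 (adjusted p = 0.119), while the rise in H1650 was the largest of the 42 members, at 1.08 ± 0.10 or 2.12-fold (adjusted p = 0.00111).

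CDC45, which joins MCM and GINS in the active helicase, had A549 signals of 480.0 and 545 with ID1 siRNA under nicotine and EGF, against 666 and 660.3 with control siRNA and 515 in the unstimulated control. In H1650 they were 1284 and 1474 with ID1 siRNA under nicotine and EGF, against 812 and 808 with control siRNA and 954 in the unstimulated control. Every A549 array was below every H1650 array, and the ID1 siRNA arrays were the highest in H1650. In A549 it gave -0.37 ± 0.13 (adjusted p = 0.0644), and its rise in H1650 was 0.76 ± 0.13 (adjusted p = 0.00774).

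Among the other subunits of the MCM ring MCM5 fell in A549 (-0.49 ± 0.10) and rose in H1650 (0.57 ± 0.10). MCM4 and MCM6 fell in A549, by 0.39 and 0.55 on the log2 scale, and had values of 0.27 and 0.12 in H1650 that did not pass. All 4 MCM4 probe sets above the filter were lower in A549 (-0.39, -0.39, -0.20 and -0.14), and the mean of all 5, at 0.17 (adjusted p = 0.435), was set by a dim one below the filter (1.96). In H1650 the other MCM4 probe sets above the filter gave 0.54, 0.42 and 0.67. The other MCM6 probe set, which passed the filter, gave 0.16 in A549 and 0.60 in H1650. With the mean of both MCM6 stood at -0.20 in A549 (adjusted p = 0.416). MCM2 and MCM7 rose in H1650 (0.52 ± 0.10 and 0.46 ± 0.10), and their A549 values of -0.16 and -0.18 did not pass. MCM10, which helps to activate the helicase, fell in A549 (-0.71 ± 0.13), with signals of 1172 and 1525 with ID1 siRNA against 2145 and 2234 with control siRNA. In H1650 its value was 0.32 ± 0.13 (adjusted p = 0.146), and its other probe sets gave 0.66 and 0.75 there.

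Among the other GINS subunits GINS1 fell in A549 (-0.46 ± 0.11), with 0.33 in H1650. GINS4 had -0.29 in A549 and 0.42 in H1650, and neither passed. Its H1650 value came from the EGF pair, where the change was 0.83 against 0.02 in the nicotine pair. GINS3, with -0.03 and 0.27, was the only helicase gene besides GINS4 that was not called for the difference (-0.31 ± 0.17).

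**Figure D3:**
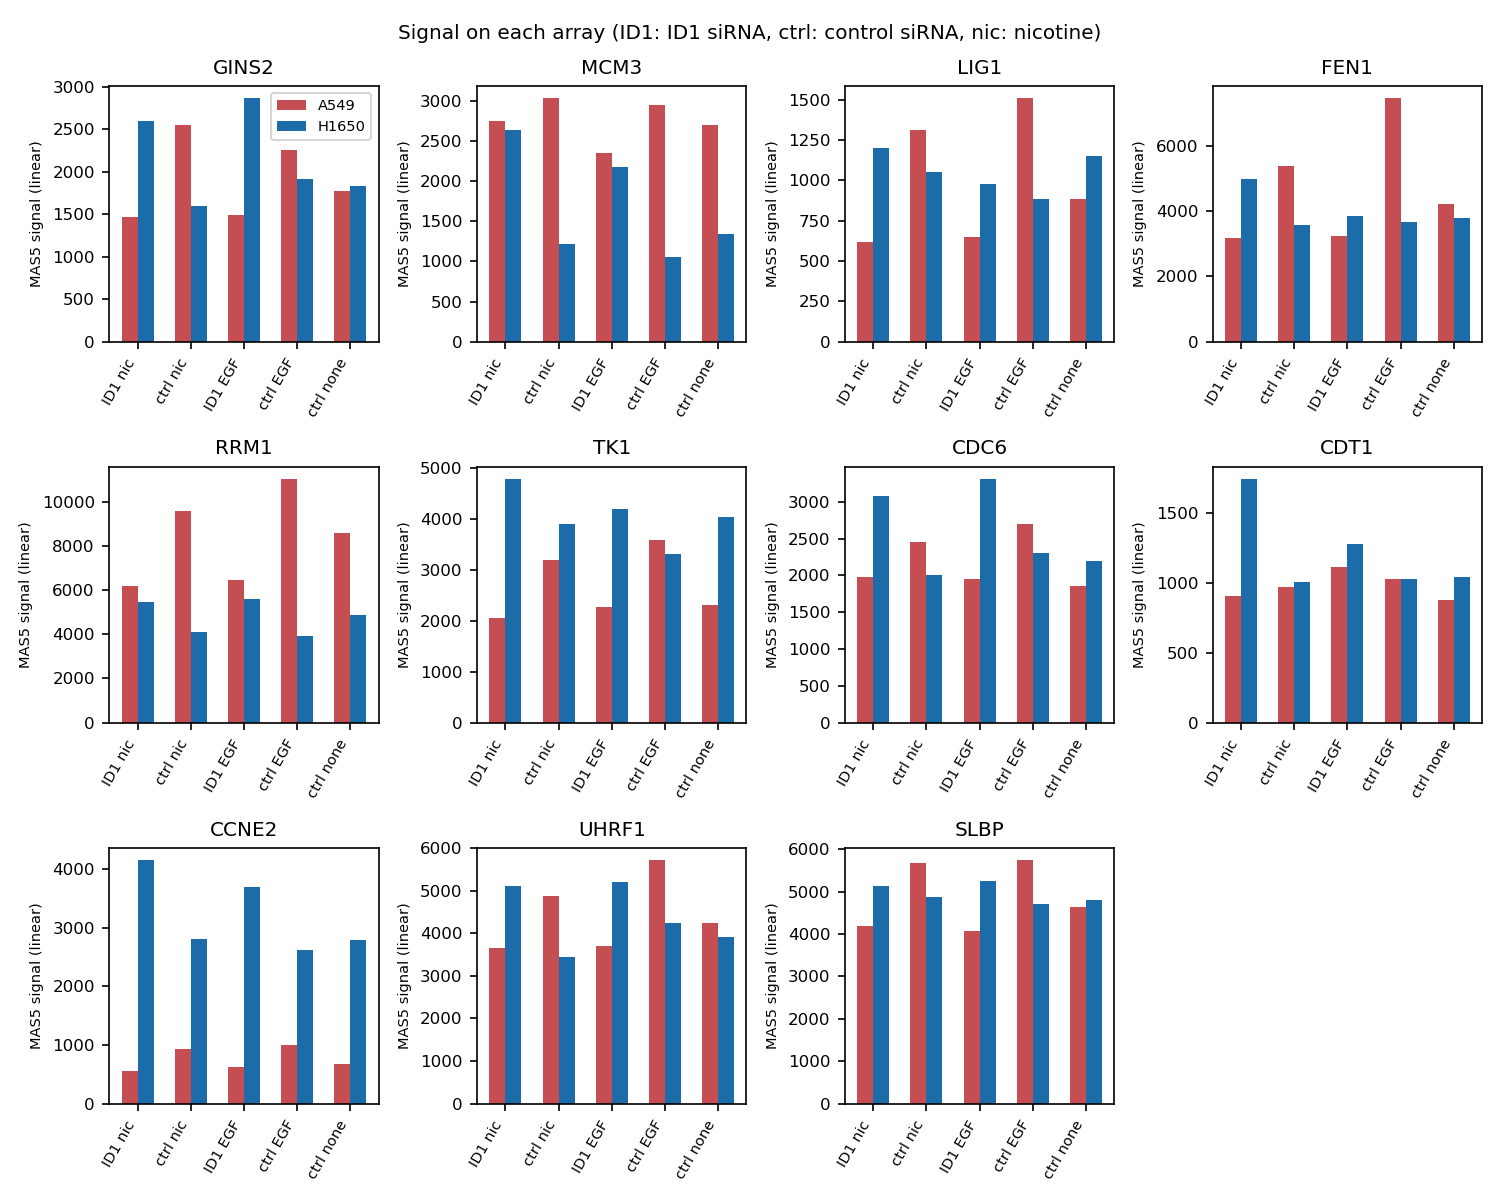
MAS5 signal (linear scale, bars from 0) of 11 members on each of the 10 arrays, with ID1 siRNA left of its control siRNA under nicotine and EGF and the unstimulated control at the right; red bars are A549 and blue bars H1650, 1 array per bar. All plotted members but CDT1 stood below their matched controls with ID1 siRNA in A549 and above them in H1650.

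Of the 14 polymerase and replication fork genes 6 fell in A549, 3 rose in H1650 and 9 were called for the difference, with a median difference of -0.65. LIG1, the ligase that seals lagging-strand fragments, fell most of all 42 members in A549. Its signal there was 619 under nicotine and 647 under EGF with ID1 siRNA, 1312 and 1509 under the same stimuli with control siRNA, and 886 in the control without a stimulus. In H1650 it was 1197 under nicotine and 977 under EGF with ID1 siRNA, 1052 and 883 under the same stimuli with control siRNA, and 1149 in the control without a stimulus. The A549 arrays with ID1 siRNA lay below all 3 controls, and in H1650 the ID1 siRNA arrays overlapped the controls. The fall in A549 was -1.15 ± 0.11, a 2.22-fold lower level (adjusted p = 0.000253), and the H1650 value was 0.17 ± 0.11. The difference of -1.32 ± 0.16 was the only one among the members that stayed called in every alternative setting run.

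FEN1, the nuclease that trims lagging-strand flaps, followed LIG1. Its A549 signal was 3169 and 3223 on the ID1 siRNA arrays with nicotine and EGF and 5365 and 7450.1 on their matched controls, beside 4208 on the unstimulated control. Its H1650 signal was 4976 and 3848 on the ID1 siRNA arrays with nicotine and EGF and 3576 and 3674 on their matched controls, beside 3791 on the unstimulated control. On this probe set the A549 EGF control was the highest of all 10 arrays, and the ID1 siRNA arrays of A549 were the lowest. The other FEN1 probe set, also above the filter, did not share these places. Its A549 signals were 1434 and 1397 with ID1 siRNA, 1881 and 1867 in the stimulated controls and 1364 in the unstimulated one. The effect on that probe set was -0.40 in A549. By its brightest probe set FEN1 fell in A549 by 0.98 ± 0.14 on the log2 scale (adjusted p = 0.00169), with 0.27 ± 0.14 in H1650, where the nicotine pair gave 0.48 and the EGF pair 0.07.

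RFC2, a subunit of the clamp loader, was called in H1650. Its A549 signals were 1245 and 1459.7 with ID1 siRNA under nicotine and EGF, against 1283 and 1104 with control siRNA and 1184 in the unstimulated control. In H1650 they were 3033 and 2345 with ID1 siRNA under nicotine and EGF, against 1717 and 1611 with control siRNA and 1880.0 in the unstimulated control. Both H1650 ID1 siRNA arrays exceeded all controls of that line, and no A549 array reached the lowest of H1650. In A549 RFC2 was the member with the highest value, 0.18 ± 0.13 (adjusted p = 0.353). It rose in H1650 by 0.68 ± 0.13 (adjusted p = 0.0129), and the difference between the lines was not called (adjusted p = 0.119).

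Of the other clamp loader subunits RFC4 fell in A549 (-0.54 ± 0.10) and rose in H1650 (0.38 ± 0.10), RFC3 rose in H1650 (0.47 ± 0.09) with -0.13 in A549, and RFC5 had -0.07 and 0.07, neither of which passed. Its other probe sets gave -0.84 and -0.36 in A549. PCNA, the clamp itself, had -0.28 in A549 and 0.44 in H1650. Neither passed alone, but the difference did (-0.72 ± 0.19, adjusted p = 0.0439). That call was lost in 7 alternative settings, 3 of them the omission of 1 pair (adjusted p from 0.0644 to 0.313). The PCNA signal was 22129.7 on the A549 EGF control, against 14589 to 16359 on the other A549 arrays.

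POLA1, the catalytic subunit of polymerase alpha, had A549 signals of 774 under nicotine and 722 under EGF with ID1 siRNA, 976 and 1117 under the same stimuli with control siRNA, and 1001 in the control without a stimulus. The H1650 signals were 516 under nicotine and 611 under EGF with ID1 siRNA, 421 and 306 under the same stimuli with control siRNA, and 369.6 in the control without a stimulus. A549 was above H1650 on all arrays, and the ID1 siRNA arrays were the lowest in A549 and the highest in H1650, so that the lines stood closest with ID1 siRNA. Its effects of -0.48 ± 0.18 in A549 (adjusted p = 0.0895) and 0.65 ± 0.18 in H1650 (adjusted p = 0.0549) missed the threshold, while their difference of -1.13 ± 0.26 passed (adjusted p = 0.0273).

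POLA2, the accessory subunit of polymerase alpha, PRIM1, its primase, and POLE2, a subunit of polymerase epsilon, fell in A549 by 0.56, 0.48 and 0.59 on the log2 scale. In H1650 they had 0.30, 0.16 and 0.03, none of which passed. With the mean of its probe sets POLA2 stood at -0.38 in A549 (adjusted p = 0.364). The catalytic subunits POLD1 and POLE were called nowhere for the siRNA, with POLD1 at -0.29 in A549 and -0.05 in H1650. POLE had -0.67 in the A549 nicotine pair and 0.28 in the A549 EGF pair, so its mean of -0.19 averages changes of opposite sign. RPA2, a subunit of the protein that coats single-stranded DNA, had 0.16 and 0.27, and its difference of -0.11 ± 0.17 did not pass.

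All 4 genes of nucleotide supply were called for the difference between the lines, 3 of them fell in A549 and 2 rose in H1650. RRM1, the large subunit of ribonucleotide reductase, had A549 signals of 6178 and 6466 on the ID1 siRNA arrays with nicotine and EGF and 9570.0 and 11010.1 on their matched controls, beside 8580.3 on the unstimulated control. The H1650 signals were 5472 and 5587 on the ID1 siRNA arrays with nicotine and EGF and 4103 and 3903 on their matched controls, beside 4860.1 on the unstimulated control. In A549 both ID1 siRNA arrays were below all controls, and in H1650 both were above them. RRM1 fell in A549 by 0.70 ± 0.10 on the log2 scale (adjusted p = 0.00203) and rose in H1650 by 0.47 ± 0.10 (adjusted p = 0.0222).

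TK1, the thymidine kinase of the salvage pathway, had A549 signals of 2064 and 2271 with ID1 siRNA under nicotine and EGF, against 3204 and 3589 with control siRNA and 2320.5 in the unstimulated control. In H1650 it gave 4789.7 and 4202 with ID1 siRNA under nicotine and EGF, against 3909 and 3318 with control siRNA and 4046 in the unstimulated control. The A549 ID1 siRNA arrays lay just under the unstimulated control and well under the stimulated ones. TK1 fell in A549 (-0.65 ± 0.09, adjusted p = 0.00176), and its H1650 value of 0.32 ± 0.09 missed the threshold (adjusted p = 0.0594). RRM2, the small reductase subunit, fell in A549 (-0.56 ± 0.12), with 0.30 in H1650. TYMS, which makes thymidylate, rose in H1650 (0.65 ± 0.14), with signals of 15048 and 15237 under ID1 siRNA and 9901 and 9448 under control siRNA. In A549 TYMS had -0.22 ± 0.14 (adjusted p = 0.271).

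The 4 licensing genes were divided between loaders and the origin recognition complex. CDC6, a loader of the MCM ring, was the only licensing gene called for the difference between the lines (-0.95 ± 0.14, adjusted p = 0.00379). Its A549 signals were 1981 under nicotine and 1956 under EGF with ID1 siRNA, 2449.8 and 2693 under the same stimuli with control siRNA, and 1861 in the control without a stimulus. Its H1650 signals were 3076 under nicotine and 3308 under EGF with ID1 siRNA, 2007 and 2302 under the same stimuli with control siRNA, and 2201 in the control without a stimulus. ID1 siRNA put CDC6 below the stimulated controls in A549, although not below the unstimulated one, and above all controls in H1650. It fell in A549 (-0.38 ± 0.10) and rose in H1650 (0.57 ± 0.10).

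CDT1, the partner of CDC6 in loading, had A549 signals of 904 and 1112 on the ID1 siRNA arrays with nicotine and EGF and 969 and 1030.0 on their matched controls, beside 878 on the unstimulated control. In H1650 they were 1741 and 1274 on the ID1 siRNA arrays with nicotine and EGF and 1002 and 1025 on their matched controls, beside 1045 on the unstimulated control. The nicotine array with ID1 siRNA stood apart in H1650, and the A549 arrays overlapped. CDT1 rose in H1650 (0.56 ± 0.14, adjusted p = 0.0342) and was at 0.00 ± 0.14 in A549, but the difference was not called (adjusted p = 0.106). Without the nicotine pair its H1650 value was 0.31 (adjusted p = 0.318). ORC1 and ORC6, subunits of the origin recognition complex, were called in neither line, with -0.05 and 0.05 in A549 and 0.37 and 0.15 in H1650. In A549 the pairs of both went opposite ways, at -0.27 and -0.12 under nicotine and 0.17 and 0.22 under EGF.

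Of the E cyclins, which activate CDK2 at the entry into S phase, CCNE2 was called in both lines and CCNE1 in neither. The A549 signals of CCNE2 were 548.6 and 629 with ID1 siRNA under nicotine and EGF, against 938 and 993 with control siRNA and 677 in the unstimulated control. In H1650 it had 4153 and 3701 with ID1 siRNA under nicotine and EGF, against 2808 and 2622 with control siRNA and 2786 in the unstimulated control. All H1650 arrays were far above all A549 arrays, and within each line the ID1 siRNA arrays lay outside the range of the controls. CCNE2 fell in A549 (-0.72 ± 0.10, adjusted p = 0.00154) and rose in H1650 (0.53 ± 0.10, adjusted p = 0.0118). CCNE1 had 0.04 ± 0.12 in A549 and -0.19 ± 0.12 in H1650. Its difference of 0.23 ± 0.17 was the only positive one among the 42 members, and it did not pass (adjusted p = 0.417).

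E2F1, a factor that drives genes of S phase entry, had A549 signals of 362 under nicotine and 339 under EGF with ID1 siRNA, 576 and 392 under the same stimuli with control siRNA, and 509 in the control without a stimulus. The H1650 signals were 1188 under nicotine and 1240.3 under EGF with ID1 siRNA, 795 and 859 under the same stimuli with control siRNA, and 1354 in the control without a stimulus. In H1650 the unstimulated control was the highest array, followed by the ID1 siRNA arrays, and the stimulated controls were lowest. E2F1 rose against the stimulated controls in H1650 (0.56 ± 0.15, adjusted p = 0.0476), and in A549 its value of -0.44 ± 0.15 missed the threshold (adjusted p = 0.0655). Against the unstimulated control its H1650 values with ID1 siRNA were -0.19 under nicotine and -0.13 under EGF. The place of the unstimulated control in H1650 and the sign of the effect in A549 depended on the probe set. The other E2F1 probe set, also above the filter, had H1650 signals of 1166 and 1141 with ID1 siRNA, 828 and 576 in the stimulated controls and 822 in the unstimulated one. In A549 it had 419 and 408 with ID1 siRNA and 404 and 377 in the stimulated controls, an effect of 0.08. With the mean of both probe sets the difference between the lines was -0.83 (limma adjusted p = 0.0562).

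Of the 5 chromatin and checkpoint genes UHRF1 and SLBP were called for the difference. UHRF1, which guides maintenance methylation to newly copied DNA, had A549 signals of 3661 and 3703 on the ID1 siRNA arrays with nicotine and EGF and 4870.2 and 5716 on their matched controls, beside 4244 on the unstimulated control. In H1650 it had 5106 and 5203 on the ID1 siRNA arrays with nicotine and EGF and 3447 and 4249 on their matched controls, beside 3916 on the unstimulated control. The ID1 siRNA arrays were the lowest in A549 and the highest in H1650. UHRF1 fell in A549 (-0.52 ± 0.11, adjusted p = 0.0108) and rose in H1650 (0.43 ± 0.11, adjusted p = 0.0398). Without the H1650 nicotine pair its H1650 value was 0.29 (adjusted p = 0.394).

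SLBP, which binds the stem loop of histone messages, had A549 signals of 4189 and 4078 with ID1 siRNA under nicotine and EGF, against 5689.9 and 5745 with control siRNA and 4629 in the unstimulated control. In H1650 it gave 5134 and 5253 with ID1 siRNA under nicotine and EGF, against 4879.9 and 4712 with control siRNA and 4812 in the unstimulated control. The A549 ID1 siRNA arrays were the lowest of that line, and those of H1650 were the highest of theirs by a small margin. SLBP fell in A549 (-0.47 ± 0.10, adjusted p = 0.00931), with 0.12 ± 0.10 in H1650. CHAF1A and CHAF1B, subunits of the factor that places histones behind the fork, and CLSPN, a checkpoint adaptor at the fork, were called in neither line. Their values were -0.22, 0.06 and -0.37 in A549 and 0.16, 0.28 and 0.04 in H1650.

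**Figure D4:**
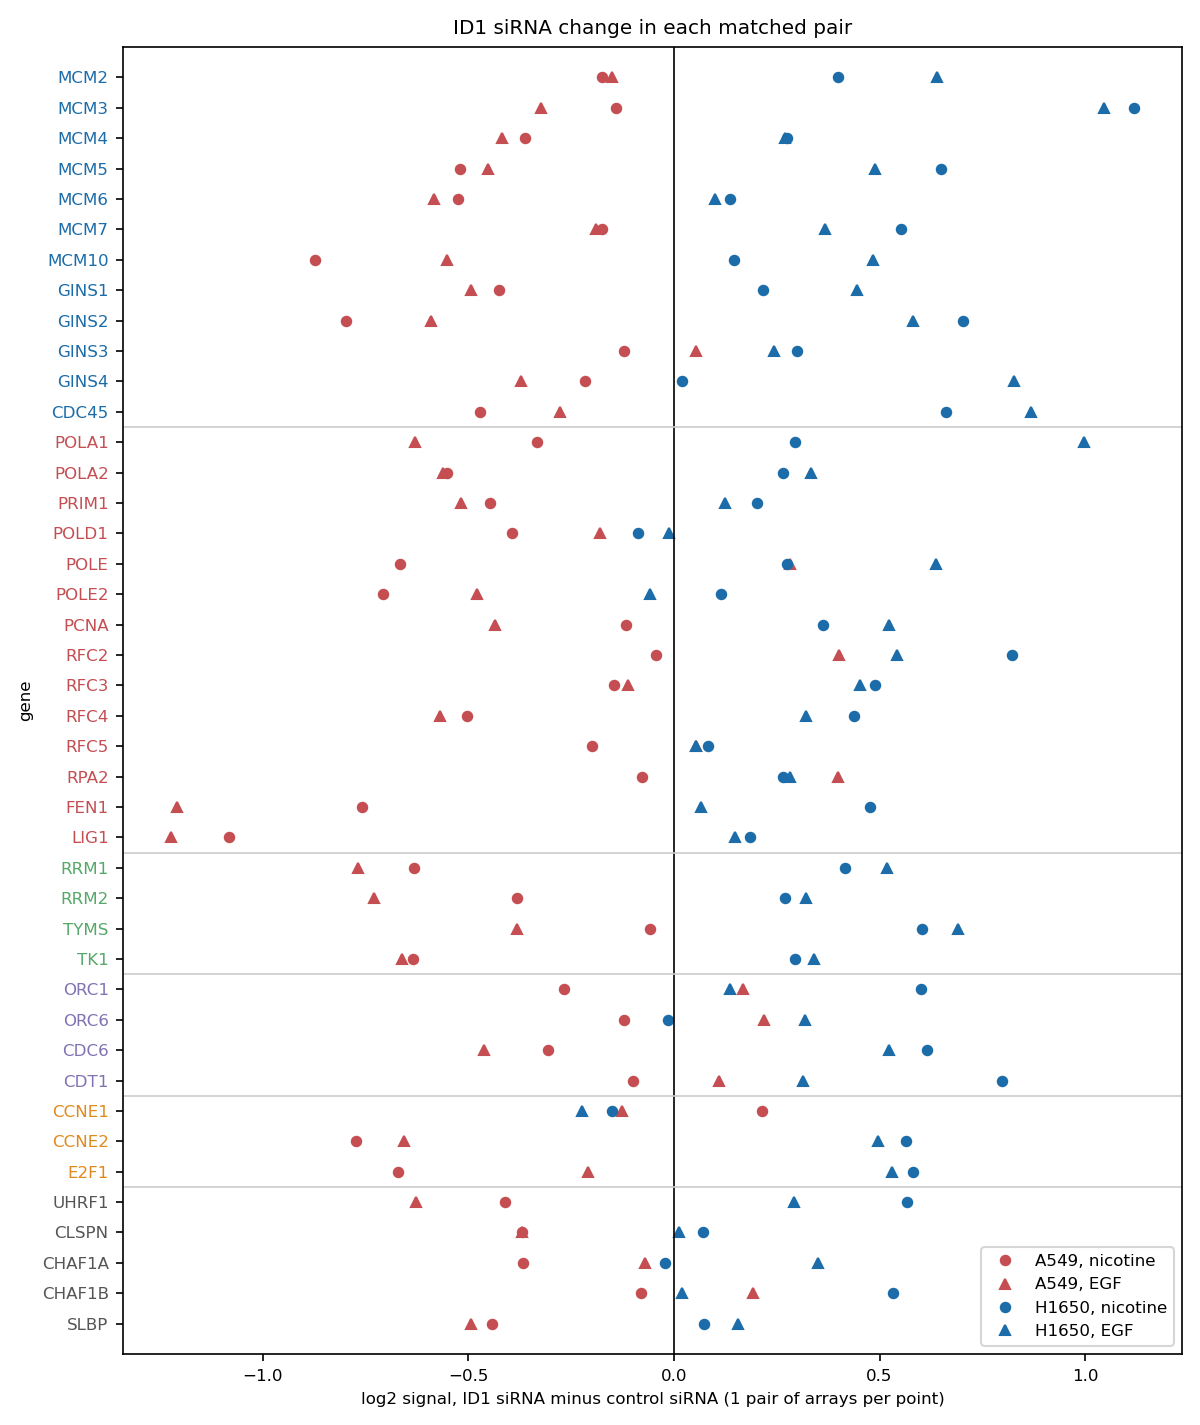
Change with ID1 siRNA (log2 signal minus that of the matched control siRNA array) of each member in the 4 pairs; red symbols are A549 and blue symbols H1650, circles are nicotine pairs and triangles EGF pairs, 1 pair of arrays per point. For 29 of 42 members both red points lie left of zero and both blue points right of it.

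Whether the siRNA effect depended on the stimulus was asked with a term common to both lines, the effect under EGF minus that under nicotine. In limma 0 of 42 members were called, where 2 of 12514 genes (0.016%) were, and 2 members, FEN1 and POLE, had an unadjusted p under 0.05, where 5.41% of all tested genes did. FEN1 had a difference of -0.43 ± 0.17 (adjusted p = 0.749) and POLE one of 0.66 ± 0.21 (adjusted p = 0.556), and the median over the members was 0.01. This fit had 1 residual degree of freedom.

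Nicotine and EGF in cells with control siRNA were each set against no stimulus over both lines, and the stimuli were set against each other. With limma 0 members were called and 0 had an unadjusted p under 0.05 in any of the 3 comparisons. Among all tested genes 0% were called in each, and 1.51%, 5.97% and 3.01% had an unadjusted p under 0.05 for nicotine, EGF and EGF against nicotine. The members' medians were 0.10, 0.17 and 0.05. Each estimate rests on 2 pairs of arrays, 1 per line, and the nicotine and EGF comparisons share the unstimulated arrays. The fit has no term for a response that differs between the lines, so such differences, also those to ID1 siRNA, enter its error. The standard error was 0.36 for GINS2 and 0.37 for LIG1, against 0.10 and 0.11 for the siRNA effect within a line. These p-values thus do not show that a line did not respond.

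Read line by line, these comparisons are single pairs of arrays with no replicate, and they were not tested. In A549 the members' median was 0.23 higher with nicotine than without a stimulus (37 of 42 higher) and 0.32 higher with EGF (36 of 42 higher), against medians of 0.02 and -0.03 over all tested genes. In H1650 the medians were -0.07 (11 of 42 higher) and -0.04 (16 of 42 higher), against -0.01 and -0.03. FEN1 and LIG1 had the largest EGF values in A549, 0.82 and 0.77, and CLSPN had the largest nicotine value, 0.66. The A549 EGF control had the lowest median signal (61.2) and the highest maximum signal of the 10 arrays, and its part in these values was not tested. In H1650 the extremes were CHAF1A, with signals of 356 without a stimulus, 721 with nicotine and 472 with EGF, and E2F1, with 1354, 795 and 859. Other probe sets of these genes gave other values, with 243, 228 and 189 on 1 and 272, 372 and 366 on another of CHAF1A, and 822, 828 and 576 on the other of E2F1.

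Stimulated cells with ID1 siRNA can also be read beside the unstimulated control of their line, again as single pairs that share that control. In A549 the members' medians were -0.15 under nicotine (31 of 42 lower) and -0.06 under EGF (27 of 42 lower). All tested genes had medians of 0.01 and 0.02 there, with 49.2% and 47.0% lower. In H1650 the members' medians were 0.28 and 0.31 (38 of 42 higher in both). Over all tested genes the H1650 medians were -0.02 and -0.01, with 48.1% and 48.6% higher. By the members' medians the A549 ID1 siRNA arrays lay nearer to the unstimulated control than to the stimulated ones. The ID1 signal of the unstimulated A549 control, given above, was also below that of both stimulated controls. LIG1 and E2F1 were the lowest members in A549, with -0.52 for LIG1 under nicotine and -0.59 for E2F1 under EGF. The other E2F1 probe set was higher there, at 408 with ID1 siRNA and EGF against 353 in the unstimulated control.

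Over the 5 matched conditions the members divided between the lines. Higher in A549 were 11 members and lower were 12, where 30.9% of all tested genes were higher and 32.2% lower, so the share called was close to that of other genes. The members' median was -0.17, beside -0.03 over all tested genes. All 5 A549 arrays lay above all 5 H1650 arrays for GINS4, POLA1, PRIM1, PCNA and RRM1, a rule that 24.7% of all tested genes met. They lay below for 10 members, MCM2, CDC45, POLD1, RFC2, RRM2, ORC6, CCNE1, CCNE2, E2F1 and CLSPN, where 25.3% of all tested genes did.

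CCNE2 had the largest difference, at -2.10 ± 0.21 or 4.29-fold lower in A549 (adjusted p = 4.26e-05), with the signals given above. E2F1 followed at -1.32 ± 0.19. CLSPN had A549 signals of 257 under nicotine and 243 under EGF with ID1 siRNA, 333 and 314 under the same stimuli with control siRNA, and 211 in the control without a stimulus. In H1650 it had 532 under nicotine and 614 under EGF with ID1 siRNA, 506 and 609 under the same stimuli with control siRNA, and 556 in the control without a stimulus. The lowest H1650 array was above the highest A549 array, and the difference was -1.07 ± 0.15 (adjusted p = 0.000278). CCNE1 was lower in A549 as well (-0.54 ± 0.10), so that all 3 genes of cyclin E and E2F1 were called lower in A549.

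On the other side stood GINS4, with A549 signals of 607 and 569 on the ID1 siRNA arrays with nicotine and EGF and 705 and 737 on their matched controls, beside 651 on the unstimulated control. Its H1650 signals were 298 and 384 on the ID1 siRNA arrays with nicotine and EGF and 294 and 216 on their matched controls, beside 250.5 on the unstimulated control. The ranges were far apart, and GINS4 was 2.30-fold higher in A549 (1.20 ± 0.17, adjusted p = 0.000356). PRIM1 had A549 signals of 1889 and 2058 with ID1 siRNA under nicotine and EGF, against 2577 and 2946 with control siRNA and 2192 in the unstimulated control. In H1650 it had 1220.3 and 1216 with ID1 siRNA under nicotine and EGF, against 1062 and 1116 with control siRNA and 1098 in the unstimulated control. PRIM1 was thus higher in A549 on every array (1.01 ± 0.13), as was POLA1 (1.07 ± 0.22).

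In this fit over all 5 conditions subunits of the same complex were called in different directions. Of the members called higher in A549, MCM3, MCM10, RFC3, TYMS and POLE2 differed little between the lines with ID1 siRNA. Under nicotine and EGF their values, A549 minus H1650, were 0.06 and 0.12 for MCM3 and -0.13 and 0.05 for MCM10. They were -0.03 and 0.06 for RFC3, -0.05 and 0.09 for TYMS, and 0.07 and 0.06 for POLE2. In the helicase MCM3 and MCM7 were higher in A549 (0.80 and 0.50), as was MCM10 (0.47), while MCM2 and CDC45 were lower (-0.73 and -0.86). In the clamp loader RFC3 was higher (0.34) and RFC2 lower (-0.72). Of ribonucleotide reductase RRM1 was higher (0.78) and RRM2 lower (-0.87), and TK1 was lower (-0.62). TYMS was higher (0.54) and its other probe set above the filter gave 0.89, while the mean of all 3, at -0.23 (adjusted p = 0.52), was set by a dim one below the filter (-2.12). PCNA and POLE2 were higher (0.74 and 0.37), and POLD1, POLE and ORC6 were lower (-0.33, -0.48 and -0.54). Of the 23 line calls 16 held in every setting, and those of MCM10, RFC3, TYMS, TK1, POLE2, POLD1 and POLE were lost in some. POLD1 stood at -0.18 after array-median centring (adjusted p = 0.264), and POLE2 at 0.25 without the A549 nicotine control (adjusted p = 0.138).

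The line difference was read in each condition. The members' median, A549 minus H1650, was -0.52 with ID1 siRNA and nicotine and -0.31 with ID1 siRNA and EGF, against 0.23 with control siRNA and nicotine, 0.23 with control siRNA and EGF and -0.08 in the unstimulated controls. FEN1, for example, was -0.65 and -0.26 with ID1 siRNA but 0.59 and 1.02 with control siRNA. In the 6 control siRNA arrays alone, a fit added after the data had been seen, 15 members were higher in A549 and 9 lower, where 27.5% of all tested genes were higher and 30% lower, with a median of 0.091. POLE stood at -0.30 in that fit (adjusted p = 0.165), and POLD1 and TK1 were not called either. In the fit to all 10 arrays the split was 13 higher and 9 lower after centring each array on its median. Of the 12514 tested genes 4577 were higher and 3187 lower after that centring. Without any 1 of the 6 control siRNA arrays that fit called 7 higher and 9 to 13 lower.

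**Figure D5:**
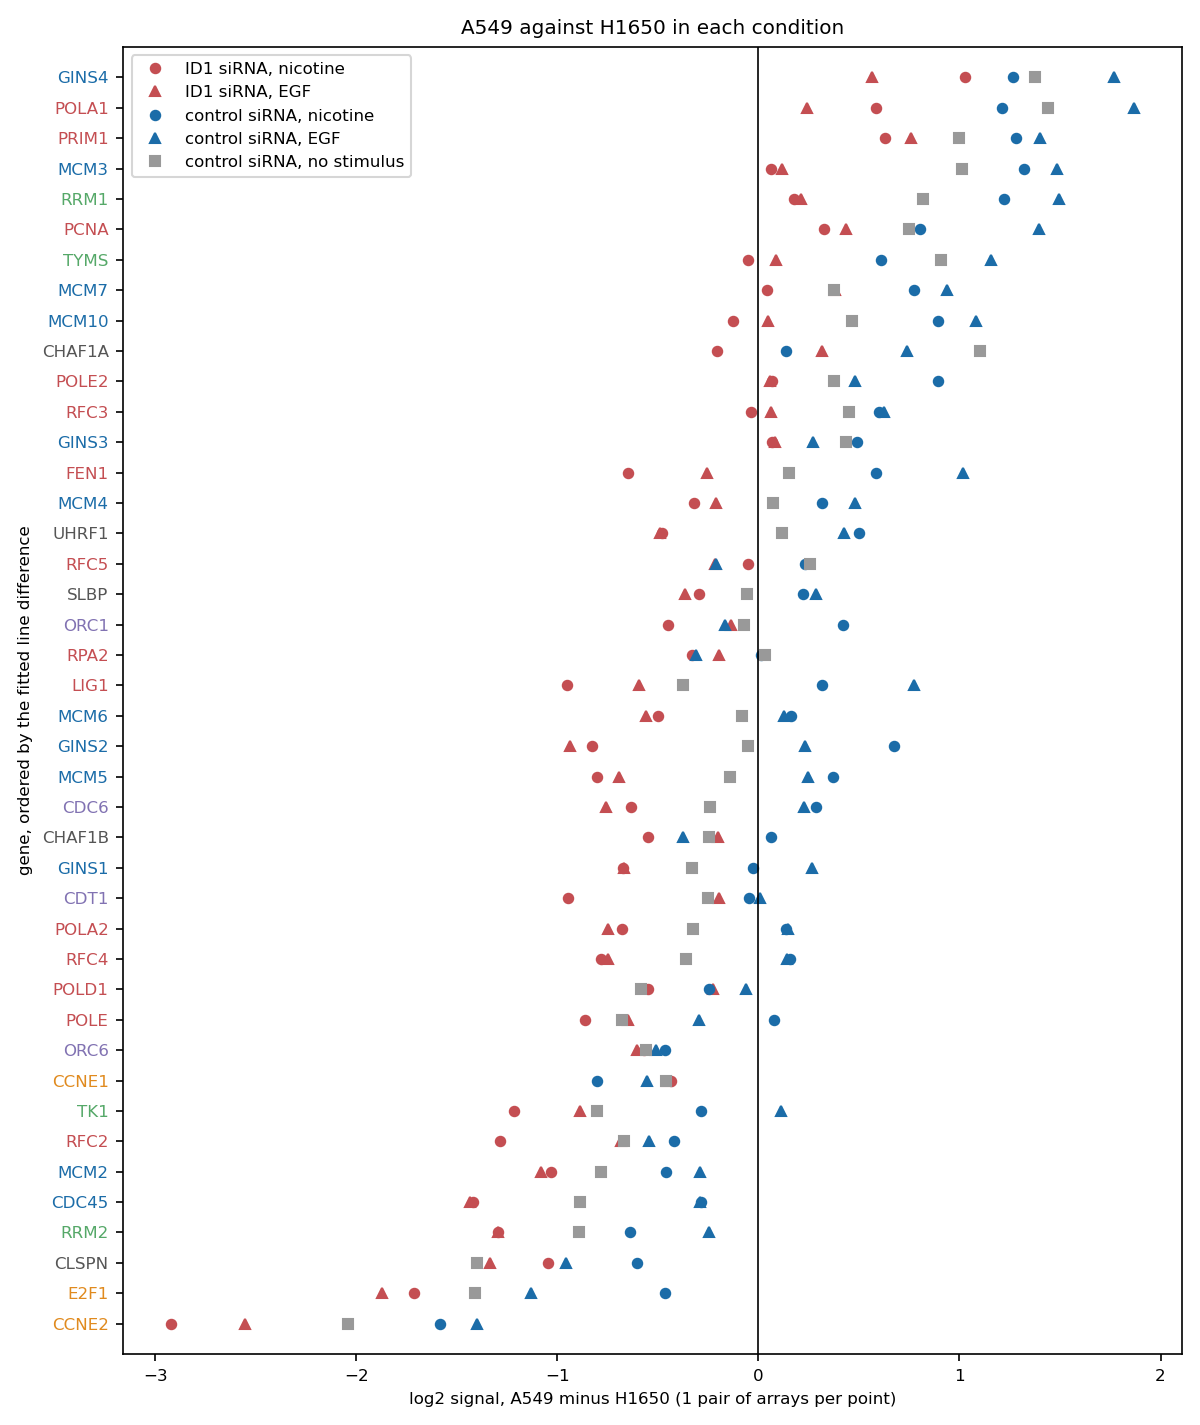
Log2 signal in A549 minus that in H1650 for each member in the 5 conditions, 1 pair of arrays per point, with genes ordered by the fitted difference; red symbols are ID1 siRNA, blue symbols control siRNA with a stimulus and grey squares the unstimulated control. GINS4 stands at the top and CCNE2 at the bottom, and red points lie left of the blue ones for most members, with medians of -0.52 and -0.31 against 0.23 and 0.23.

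Other probe sets of the same genes give a view that the choice of the brightest did not use, although on the same arrays. Of the 42 members 18 had 1 probe set and 24 had several, and 28 of the 39 other probe sets, from 22 genes, passed the filter. The sign of the ID1 siRNA effect was that of the brightest probe set for 23 of 28 in A549 and for all 28 in H1650, and that of the difference for 27 of 28. The exception was a dim probe set of GINS2, at 0.17 against -1.34, whereas another one of GINS2 gave -0.64. RFC5, which was not called by its brightest probe set (-0.07 in A549), had -0.84 and -0.36 on its other probe sets. The difference between the lines in level kept its sign for 22 of 28.

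Genes around this group were read from lists named for their function. These lists too were chosen with earlier results of these data known, so their counts are a description and not independent support. Beside the siRNA counts of all these lists stand the shares over all tested genes. In A549 11.4% fell and 13.8% rose, in H1650 5.64% rose and 6.66% fell, and for the difference 4.92% were lower and 6.98% higher. Of 37 tested replication genes outside the 42, 11 fell in A549 and 0 rose, 8 rose in H1650 and 0 fell, and 12 were lower for the difference and 0 higher. Their medians were -0.22, 0.21 and -0.47, and 17, 16 and 22 of them had an unadjusted p under 0.05. Of the 12514 tested genes 4833, 3404 and 3527 had such a p. RNASEH2A, a subunit of the nuclease that removes RNA from DNA, fell most in A549 (-0.86 ± 0.13), followed by MCM8 (-0.75 ± 0.11) and DNA2 (-0.66 ± 0.13). In H1650 TOP2A, a topoisomerase of chromosome separation, rose most (0.72 ± 0.11), followed by TIPIN (0.55 ± 0.11) and RPA1 (0.53 ± 0.10). Between the lines POLD4 was the highest in A549 (1.22 ± 0.11) and ASF1B the lowest (-1.26 ± 0.16), with 7 genes higher and 17 lower. Over all tested genes 30.9% were higher in A549 and 32.2% lower.

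Regulators in the RB and E2F pathway were less uniform. Of 27 tested, 2 rose and 6 fell in A549, 7 rose and 3 fell in H1650, and 2 were higher and 5 lower for the difference, with medians of -0.11, 0.03 and -0.10. CDKN1A, the CDK inhibitor p21, rose in A549 (0.94 ± 0.11), as did CDK6 (0.39 ± 0.09), while E2F8 (-0.73 ± 0.13), FBXO5 (-0.61 ± 0.10) and E2F3 (-0.58 ± 0.14) fell. In H1650 E2F8 rose (0.82 ± 0.13), with CCNA2, the S phase cyclin A, at 0.73 ± 0.09 and the RB relative RBL1 at 0.68 ± 0.15. E2F5 (-1.20 ± 0.19), E2F3 (-0.73 ± 0.14) and E2F7 (-0.48 ± 0.10) fell there. For the difference CDKN1A was highest (1.27 ± 0.15) and E2F8 lowest (-1.55 ± 0.19). Of the regulators 8 were higher and 11 lower in A549 than in H1650, where 30.9% of all tested genes were higher and 32.2% lower. E2F5 stood at 2.36 ± 0.21 and MYBL2 at -1.91 ± 0.14.

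All 16 genes of G2 and mitosis were lower for the difference, and of these 12 fell in A549 and 12 rose in H1650, with medians of -0.46 in A549, 0.63 in H1650 and -1.10 for the difference. TPX2, a spindle factor, fell most in A549 (-0.75 ± 0.10), and KIF20A, a kinesin of cell division, rose most in H1650 (1.04 ± 0.20). BIRC5, also known as survivin, had the largest difference (-1.32 ± 0.18). Between the lines 1 was higher in A549, CDK1 (0.62 ± 0.23), and 6 were lower, where 30.9% of all tested genes were higher and 32.2% lower. In limma 0 genes of the 3 lists were called for a stimulus, and at an unadjusted p under 0.05 there was 1 of the 37 replication genes for EGF against no stimulus and 1 of the 27 regulators for EGF against nicotine. For the siRNA effect between stimuli 0 were called, with 2, 2 and 1 genes at an unadjusted p under 0.05, where 5.41% of all tested genes had such a p.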

How the data were processed

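Total RNA of A549 and H1650 cells was hybridised to 10 Affymetrix U133 Plus 2.0 arrays, 1 per line and condition. The authors deposited a MAS5 intensity per probe set on a linear scale, made with GCOS 1.4 per the submitters' processing notes, and the log2 of these deposited values was taken here. Of 54675 probe sets, 62 controls, 1801 with several genes and 11721 with no gene were left out, and 41091 with 1 gene (41037 matched by Entrez ID) gave 19775 genes, each by its brightest probe set. Genes with a mean log2 signal of at least 6.06, the median over all probe sets, were tested with limma 3.58.1 (R 4.3.3, intensity trend) and Benjamini-Hochberg adjustment over 12514 genes. The siRNA terms were fitted on the 8 stimulated arrays with the 4 pairs of line and stimulus as a block (2 residual degrees of freedom). The residual spread there is the difference of the effect between the nicotine and EGF pairs, pooled over both lines. Limma combined it with a prior of 6.64 degrees of freedom drawn from all tested genes. The pairing comes from the labels' line and stimulus, not from a stated shared culture. Line and stimulus contrasts were fitted on 10 arrays with line and condition as terms (4 residual degrees of freedom). The fits were tested on simulated data. The share of false calls was above the call threshold for every comparison but the difference of the siRNA effect between lines. Most of the smallest changes were missed for the siRNA effect within each line and for its differences between lines and between stimuli. Most were also missed for nicotine against no stimulus. The 42 members and the other lists were chosen with earlier results of these data known. Genes named with the value on every array were the members with the largest difference between lines in each role (2 per role, 1 for cyclin E and E2F1) and up to 3 called members per direction and comparison. Of the other lists, up to 3 called genes per direction were eligible. The number of arrays limits the precision, and no replicate array exists within a condition. The motif search covered 250 bases before and 50 after the start of each RefSeq promoter on both strands. The alternatives tried were quantile normalization, array-median centring, 16 added to the signal, no filter, a filter at a mean log2 of 8, averaging all probe sets of a gene, leaving out the intensity trend, additive line and stimulus terms, and leaving out each array or pair.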

Additional observations from a re-analysis of the deposited data

Results flagged for a closer look

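The test of the difference between the lines, the ID1 siRNA effect in A549 minus that in H1650, singled out 28 members, all with a negative value. Among the helicase genes the log2 difference was -1.34 for GINS2, -1.315 for MCM3, -1.14 for CDC45, -1.05 for MCM5, -1.03 for MCM10, -0.79 for GINS1, -0.68 for MCM2, -0.67 for MCM6, -0.66 for MCM4 and -0.64 for MCM7. Among the polymerase and fork genes it was -1.32 for LIG1, -1.26 for FEN1, -1.13 for POLA1, -0.92 for RFC4, -0.86 for POLA2, -0.72 for PCNA, -0.65 for PRIM1, -0.62 for POLE2 and -0.60 for RFC3. The genes of nucleotide supply had -1.17 (RRM1), -0.96 (TK1), -0.87 (TYMS) and -0.85 (RRM2). CDC6 had -0.95, CCNE2 -1.25, E2F1 -0.995, UHRF1 -0.95 and SLBP -0.58. Among all tested genes 4.92% were lower by this test. Of these 28 differences 1, that of LIG1, was called in each of the 12 alternative settings run, and 12 were called in all 11 settings that kept the intensity trend.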

How the results depend on the processing

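Without the intensity trend of limma 8 members were called in A549, 0 in H1650 (21 higher at an unadjusted p under 0.05) and 1 for the difference between the lines. Array-median centring gave 33 in A549, where 3966 of the 12514 tested genes were lower. The mean of all probe sets gave 18 for the difference, where 222 of the tested genes were lower. Fitting line and stimulus as additive terms with no replicate block, so without the pairing, gave 19, 14 and 26. Leaving out 1 pair of arrays at a time gave 13 to 22 in A549, 8 to 20 in H1650 and 23 to 27 for the difference. For A549 against H1650, leaving out 1 array at a time gave 16 to 22 calls. The stimulus comparisons stayed at 0 calls wherever they were run. Among single members MCM4 turned to 0.17 in A549 and TYMS to -0.23 between the lines, both with the mean of all probe sets, where 1 dim probe set below the filter set the sign and those above it kept it. The members' median for A549 against H1650 turned to 0.091 in the 6 control siRNA arrays, a setting chosen after seeing the data. Leaving out 1 array, the median ranged from -0.11 to 0.28 for nicotine, from -0.094 to 0.40 for EGF and from -0.20 to 0.30 for EGF against nicotine, and centring turned that of the siRNA effect between stimuli to -0.062. The causes were not tested. Members called in every setting were CCNE2, FEN1, LIG1, RRM1 and TK1 in A549, none in H1650, LIG1 for the difference, and 16 for A549 against H1650. With 1 array per line and condition the spread within a condition was not measured, and the fit for the siRNA effect between stimuli could not be made without a pair, as no residual degree of freedom was left.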
